A study of Mus musculus with 13 samples.

Results

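Interferon-stimulated genes are the genes that cells switch on after interferon signalling or after sensing foreign or misplaced nucleic acid. A list of 34 of them was read out of the 53653 gene symbols of a count table of mouse medulloblastoma RNA-seq libraries, by gene symbol. All 34 had a row, and 32 of them passed the filter on low counts that left 22265 genes to test. Mx1 and Oas1a did not pass it.

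Interferons bind receptors on the cell surface, Janus kinases then phosphorylate STAT proteins, and a complex of STAT proteins with IRF9 binds interferon-stimulated response elements in promoters. Type I interferons, made by most cells after RNA or DNA is sensed in the cytosol, act mainly through that element. Interferon gamma, made by lymphocytes, acts mainly through gamma-activated sites bound by STAT dimers. The proteins that result sense nucleic acid, degrade RNA, block translation, trap virions and damp the signal itself. In brain tissue microglia and other myeloid cells are strong users of this programme.

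The tumours were Sonic Hedgehog medulloblastomas, cerebellar tumours of granule cell precursors, in mice that overexpressed SmoM2, an active form of Smoothened. There were 4 libraries of spinal metastases with Kmt2d knocked out (KO metastasis, replicates 3, 4, 6 and 7), 4 of primary cerebellar tumours with the knockout (KO primary, replicates 3, 4, 6 and 7) and 5 of primary cerebellar tumours with SmoM2 alone (control primary, replicates 3 to 7). Kmt2d encodes a histone methyltransferase that acts mainly at enhancers. GFP-positive cells were sorted from papain-dissociated tissue in every group. Mice of the knockout genotype (SmoM2-Kmt2dCf/Cf) were 5 to 8 weeks old and SmoM2 mice 6 to 16 weeks. Pellets held 0.1 to 3 M cells for metastases and 1 to 5 M for primaries. The labels used here name no promoter or Cre line, and they do not say which libraries share a mouse, so p-values refer to the spread among libraries, which may be technical in part. Values per library are given in the order of the replicate numbers above.

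Total counts per library ran from 23.5 to 41.4 M. Kmt2d itself gave 105 to 131 counts per 1e6 library counts (CPM) in the KO metastases, 91.7 to 168 CPM in the KO primaries and 78.1 to 175 CPM in the control primaries. The part of the gene that was deleted is not given, so whole-gene counts do not check the knockout. Receptor genes of the olfactory and vomeronasal epithelium, silent in cerebellum, summed to 565 CPM in KO metastasis 6, 349 CPM in KO metastasis 7, 723 CPM in KO primary 7 and 1752 CPM in control primary 3, against 6.08 to 83.5 CPM in the other 9. Those 4 libraries are called high-background below, and results that rest on them are given with and without them. KO metastasis 3 stood apart in its share of mitochondrial counts, at 2.06% against 0.633 to 0.876% in the other 12. Control primaries 5, 6 and 7 had 324 to 510 CPM of Xist and no KO library had over 0.364 CPM, so sex and genotype overlap in part. All 10 granule cell precursor markers examined were detected, with summed levels of 3261 to 4632 CPM in the KO metastases, 3334 to 4102 CPM in the KO primaries and 2245 to 3178 CPM in the control primaries.

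The interferon-stimulated genes were low in all 3 groups. Scaled to exon length, the median over the 34 genes was 0.430 CPM per kb (0.459 for the 32 that passed the filter), against 4.85 CPM per kb over 14833 tested protein-coding genes. Of the 34, 33 lay below that median. Ifit2, whose protein binds RNA and restrains viral translation, was the exception at 6.96 CPM per kb. The STAT protein gene Stat2 followed at 4.30, Cmpk2 at 2.70, the RNA sensor gene Ifih1 at 2.38 and Irf9 at 2.17 CPM per kb. At the low end stood Oas2 at 0.0917, Oas3 at 0.0421 and Mx1 at 0.0355 CPM per kb. All 3 genes belong to the classic antiviral effectors. These levels are means of the 3 group means.

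**Figure D1:**
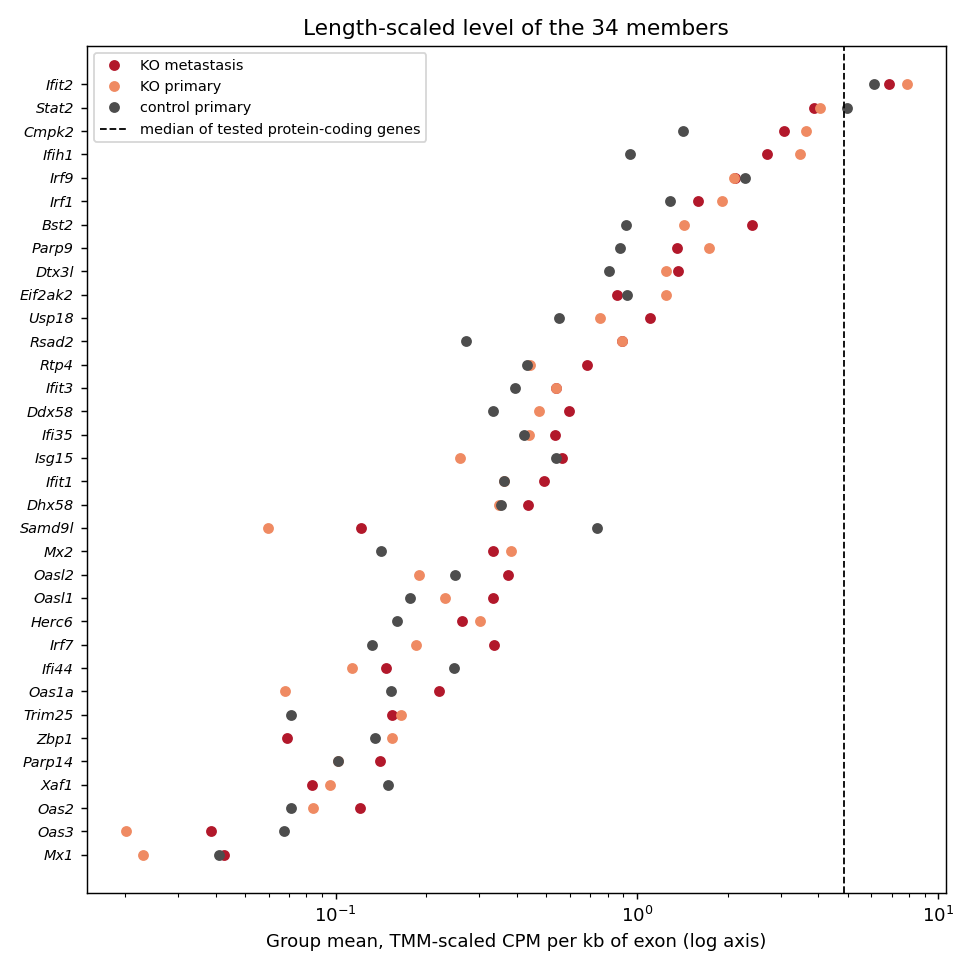
Group mean level per kb of exon (log axis) of each of the 34 genes in KO metastases, KO primaries and control primaries, with the median of tested protein-coding genes as a dashed line. Ifit2 is the only gene right of the line in all 3 groups, Stat2 lies right of it in the control primaries, and the control primaries stand left of both knockout groups for Ifih1 and Rsad2.

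Whole libraries differed in the level of the list. The mean of log2(CPM + 0.5) over the 32 tested genes was 1.13, 0.82, 2.17 and 1.30 in the KO metastases, 1.22, 1.43, 1.33 and 1.40 in the KO primaries and 1.80, 0.77, 0.98, 0.97 and 0.71 in the control primaries. The group means were 1.36 ± 0.58 (SD, n = 4), 1.35 ± 0.09 (SD, n = 4) and 1.05 ± 0.44 (SD, n = 5), in the same order of groups. KO metastasis 6 and control primary 3, both high-background, were the 2 highest of all 13. KO metastasis 6 was the highest metastasis for 27 of the 32 genes (84.4%), against 27.2% of all genes tested, and the highest of all 13 libraries for 15 (46.9%), against 3.81% of all genes tested. Control primary 3 was the highest control for 20 of 32 (62.5%), against 41.1% of all genes tested. KO primary 7 was the highest KO primary for 11 of 32 (34.4%), against 43.2% of all genes tested. Without the 4 high-background libraries the group means were 0.98 in 2 KO metastases, 1.33 in 3 KO primaries and 0.86 in 4 control primaries.

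**Figure D2:**
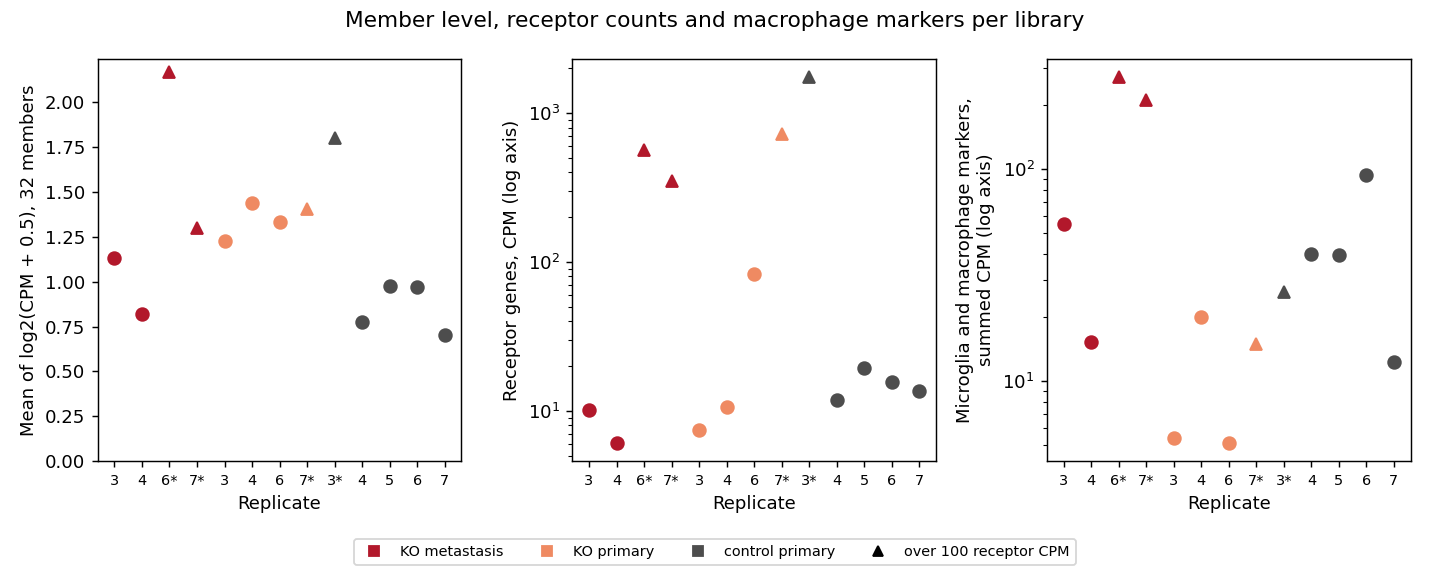
Mean log2 level of the 32 tested interferon-stimulated genes (left), CPM of olfactory and vomeronasal receptor genes (middle, log axis) and summed CPM of microglia and macrophage markers (right, log axis), 1 point per library by group and replicate, triangles for libraries over 100 receptor CPM. KO metastasis 6 is the highest of all libraries in the left and right panels, and control primary 3 is second on the left and highest in the middle. On the right, control primary 3 lies below control primaries 4, 5 and 6.

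Markers of microglia and macrophages, which use these genes strongly, differed between libraries too, and not always with the level of the list. Their 15 genes summed to 55.3, 15.4, 273 and 213 CPM in the KO metastases, 5.37, 19.996, 5.10 and 14.9 CPM in the KO primaries and 26.4, 39.9, 39.5, 94.3 and 12.3 CPM in the control primaries. KO metastasis 6 was the highest library in both. Control primary 3, at a list mean of 1.80, had a lower marker sum than control primaries 4, 5 and 6. Control primary 6 had the highest marker sum of the controls at a list mean of 0.97. The KO primaries had the lowest median marker sum of the groups and a list mean of 1.35, against 1.05 in the controls. None of the 15 markers was at 0 in every library. Of the 14 tested none was called in any comparison. All 14 had positive log2 changes between KO metastases and KO primaries (median 3.45), against 49.6% of all genes. There the unadjusted edgeR p was below 0.05 for all 14, against 3.23% of all genes. Between KO primaries and control primaries all 14 had negative changes (median -1.95), where 45.6% of all genes had positive ones. The unadjusted p was below 0.05 for 7 of the 14, against 13.6% of all genes. Markers of T and NK lymphocytes summed to at most 3.30 CPM in the KO metastases, 5.58 CPM in the KO primaries and 11.1 CPM in the control primaries, each in a high-background library. In the other 9 libraries they summed to 2.84 and 0.265 CPM in the KO metastases, 0.234 to 0.517 CPM in the KO primaries and 0.829 to 1.67 CPM in the control primaries. In bulk samples fewer cells of a type and less RNA per cell cannot be told apart. The part of either cell type in the results below was not tested.

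**Figure D3:**
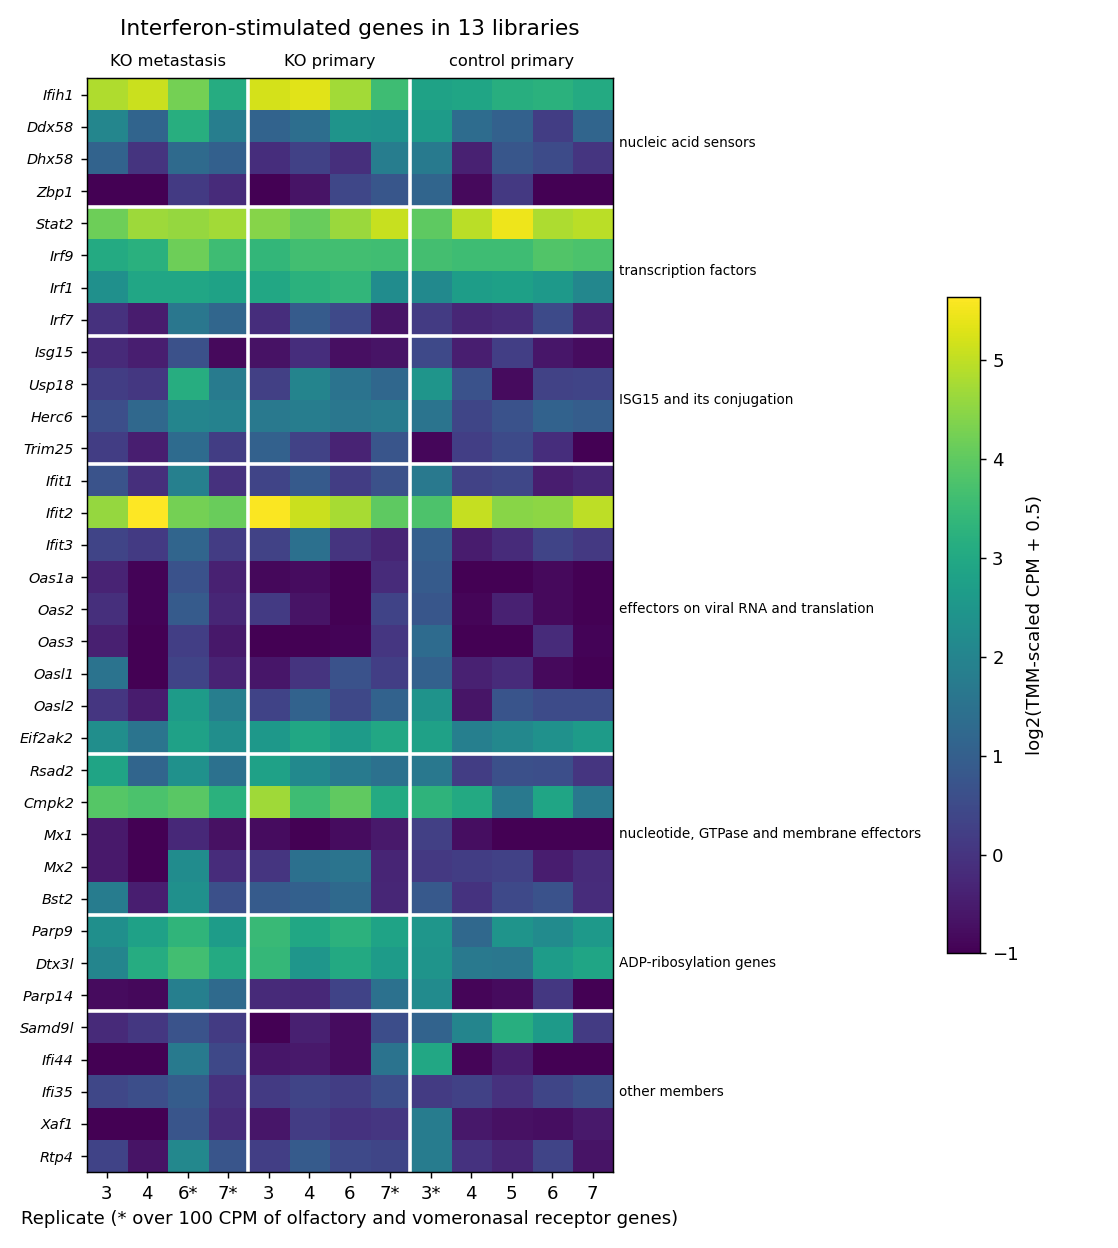
Level of each of the 34 genes, as log2(CPM + 0.5) in colour, in the 13 libraries (columns, grouped as KO metastasis, KO primary and control primary, asterisks for libraries over 100 receptor CPM), with genes grouped by role (rows). Ifih1 is brighter in the first 3 metastases and in the KO primaries than in any control, and many dim genes brighten in KO metastasis 6 and control primary 3.

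Promoter letters were read as a description. The choice by symbol did not use the letters, but it took genes known to be induced by interferon, which acts through these elements. The shares below are therefore not an independent check of the list. RefSeq windows on GRCm38.p6, from 250 bases before to 50 bases after a start site, were available for 25 of the 34. The core of the interferon-stimulated response element, GAAA, any 2 bases and GAAA on either strand, was present in 11 of the 25 (44%), against 3.99% of 27025 genes and 3.44% of 32851 windows of the same length. Those 11 genes were Ifih1, Ddx58, Stat2, Isg15, Ifit1, Ifit3, Oas1a, Oas3, Rsad2, Bst2 and Eif2ak2. The core of the gamma-activated site, TTCNNNGAA, which reads alike on both strands, was present in 6 of the 25 (24%), against 9.55% of genes and 8.30% of windows. Oas1a, Bst2 and Eif2ak2 held both cores. In Bst2 the 2 cores overlap, the gamma-activated site starting at base -136 from the start site and a response element at -130, and in Oas1a and Eif2ak2 they lie apart. A match is a description of the letters and not a bound site.

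A few of the windows are shown because the results below turn on these genes: Ifih1 (chr2:62646206-62646505, minus strand), Rsad2 (chr12:26456403-26456702, minus strand), its neighbour Cmpk2 (chr12:26468965-26469264, plus strand) and Isg15 (chr4:156200769-156201068, minus strand), a textbook interferon target that was not called here. Each is written 5′ to 3′ on the strand of the gene, and capitals mark matches to the response element core. Counted from the first transcribed base as +1, the match of Ifih1 starts at base 33, that of Rsad2 at -120 and the 3 overlapping matches of Isg15 at -78, -72 and -66. The window of Cmpk2 held neither core.
Ifih1: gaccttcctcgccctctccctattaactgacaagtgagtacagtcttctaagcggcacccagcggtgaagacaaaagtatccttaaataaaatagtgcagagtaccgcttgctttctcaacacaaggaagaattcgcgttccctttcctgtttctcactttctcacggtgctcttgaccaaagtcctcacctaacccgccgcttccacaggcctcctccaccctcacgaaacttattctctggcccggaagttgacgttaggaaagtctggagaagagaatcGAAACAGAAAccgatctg
Rsad2: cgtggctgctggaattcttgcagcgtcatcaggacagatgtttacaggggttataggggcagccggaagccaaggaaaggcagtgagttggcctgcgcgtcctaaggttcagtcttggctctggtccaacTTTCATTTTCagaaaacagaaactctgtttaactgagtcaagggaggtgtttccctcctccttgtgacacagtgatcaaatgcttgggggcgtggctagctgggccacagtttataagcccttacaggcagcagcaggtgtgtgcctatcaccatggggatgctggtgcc
Cmpk2: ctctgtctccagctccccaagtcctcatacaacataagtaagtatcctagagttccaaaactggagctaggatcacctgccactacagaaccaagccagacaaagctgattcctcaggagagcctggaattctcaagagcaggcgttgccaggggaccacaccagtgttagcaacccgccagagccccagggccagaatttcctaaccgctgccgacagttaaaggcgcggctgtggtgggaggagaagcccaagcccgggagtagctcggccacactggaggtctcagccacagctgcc
Isg15: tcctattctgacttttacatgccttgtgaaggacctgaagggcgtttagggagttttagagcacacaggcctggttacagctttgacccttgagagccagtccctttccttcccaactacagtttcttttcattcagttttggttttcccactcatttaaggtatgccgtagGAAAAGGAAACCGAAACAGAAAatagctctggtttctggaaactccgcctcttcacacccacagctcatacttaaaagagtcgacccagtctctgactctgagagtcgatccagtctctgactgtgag

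Between KO primary and control primary tumours, 1 of the 32 genes was called at an edgeR adjusted p below 0.05, and it was Ifih1, higher in the KO primaries. Across all genes tested 2.93% were called, 1.15% higher and 1.78% lower, so 1 of 32 lies near the background. The median log2 change over the 32 was 0.37, against -0.05 over all genes, and 22 of 32 were positive, against 45.6% of all genes. The unadjusted p was below 0.05 for 6 of 32, against 13.6% of all genes. The libraries of the groups did not overlap for Ifih1, Parp9 and Herc6, all 3 higher in the KO primaries, against 3.57% of all genes, and for none of the 32 were the KO primaries all lower (3.85% of all genes). Leaving out control primary 3 gave 3 called genes of 30 (Ifih1, Rsad2 and Cmpk2) and a median of 0.94. Leaving out KO primary 7 gave 2 of 32 (Ifih1 and Samd9l). Calls over all genes rose too, from 653 of 22265 to 1032 of 19995 and 811 of 22543, in that order. No listed gene was called without control primary 4 or 7 or KO primary 3 or 4, where 277 to 412 of all genes were called. Without the high-background libraries 4 of 30 were called, Ifih1, Rsad2 and Cmpk2 higher and Samd9l lower, against 7.06% of 20214 genes. DESeq2 called 5 of the 34, adding Parp9, against 3.62% of its genes, and limma voom with quality weights 6 of 32, adding Herc6, against 14.7%. Without the 3 Xist-positive controls none was called, against 0.491% of all genes.

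Among the nucleic acid sensors, Ifih1 rose in the KO primaries. It lies at chr2:62595798-62646255 on the minus strand (GRCm38) and encodes MDA5, the cytosolic helicase that recognises long double-stranded RNA. Its level was 28.0, 33.7, 18.4 and 8.06 CPM in the KO metastases, 36.5, 39.9, 25.9 and 11.3 CPM in the KO primaries and 6.58, 6.90, 8.44, 8.98 and 7.75 CPM in the control primaries. Every KO primary lay above every control, with KO primary 7 the nearest, and KO metastasis 7 lay within the control range. The KO primaries averaged 28.4 ± 12.8 CPM and the control primaries 7.73 ± 1.01 CPM (SD, n = 4 and 5). The fitted log2 change was 1.88 (SE 0.387, adjusted p 0.0179), by edgeR's quasi-likelihood test. With 1 library left out, the call was lost at an adjusted p of 0.0590 without control primary 4 and 0.0507 without control primary 7. It was also lost without KO primary 3 (0.0704) and without KO primary 4 (0.0844). Without the 3 Xist-positive controls, which leaves control primaries 3 and 4, the log2 change was 2.15 and the adjusted p 0.250. Without the high-background libraries it was 2.10, with an adjusted p of 2.49e-04.

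The 3 other sensors did not pass the test. Ddx58, which encodes the RNA sensor RIG-I, stood at 3.59, 1.70, 8.39 and 3.05 CPM in the KO metastases, 1.67, 2.15, 4.87 and 4.69 CPM in the KO primaries and 5.74, 2.04, 1.60, 0.644 and 1.72 CPM in the control primaries. Control primary 3 was the highest control, and every KO primary lay within the range of the controls. Dhx58 encodes LGP2, a related helicase that tunes both other sensors, and stood at 1.65, 0.504, 1.97 and 1.55 CPM in the KO metastases, 0.417, 0.707, 0.423 and 3.01 CPM in the KO primaries and 2.85, 0.267, 1.22, 0.934 and 0.511 CPM in the control primaries. KO primary 7 and control primary 3 were each the highest of their group. Zbp1, a sensor of Z-form nucleic acid, ran from 0 to 1.22 CPM in the KO primaries and from 0 to 1.75 CPM in the control primaries. The log2 changes between KO primaries and controls were 0.51 for Ddx58, -0.02 for Dhx58 and 0.20 for Zbp1, with standard errors of 0.596, 0.764 and 1.79.

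No transcription factor of the list was called. Stat2, the STAT protein particular to type I and type III signalling, was at 17.5, 24.9, 23.6 and 25.8 CPM in the KO metastases, 21.1, 16.9, 24.5 and 33.5 CPM in the KO primaries and 15.3, 30.5, 43.7, 27.9 and 30.5 CPM in the control primaries. Control primary 3 was the lowest library and control primary 5 the highest, so the controls enclosed both knockout groups. Irf9, its DNA-binding partner, was at 7.86, 8.78, 17.7 and 11.4 CPM in the KO metastases, 9.95, 11.9, 11.8 and 11.6 CPM in the KO primaries and 12.1, 11.3, 11.5, 13.7 and 13.1 CPM in the control primaries. KO primary 3 was the lowest KO primary and KO metastasis 6 the highest library, and the groups overlapped. The log2 changes between KO primaries and controls were -0.30 (SE 0.265, adjusted p 0.785) for Stat2 and -0.12 (SE 0.217, adjusted p 0.947) for Irf9, by edgeR. Irf1, an early target of interferon gamma, averaged 7.62 ± 2.49 against 5.11 ± 1.21 CPM in KO and control primaries (log2 0.58 (SE 0.275, adjusted p 0.387)). Irf7, which drives the second wave of type I interferon genes, averaged 0.696 ± 0.537 against 0.497 ± 0.26 CPM.

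Isg15 and the enzymes of its conjugation did not pass the test. Isg15, a ubiquitin-like protein attached to other proteins, was at 0.359, 0.239, 1.05 and 0.0575 CPM in the KO metastases, 0.13, 0.408, 0.106 and 0.135 CPM in the KO primaries and 0.875, 0.237, 0.684, 0.161 and 0.0807 CPM in the control primaries. KO primary 4 stood above the other KO primaries, and the controls reached both higher and lower. Its log2 change between KO primaries and controls was -1.05 (SE 1.01, adjusted p 0.822). Usp18, which removes ISG15 and damps the receptor, was at 0.646, 0.557, 8.25 and 2.91 CPM in the KO metastases, 0.703, 3.51, 2.38 and 1.81 CPM in the KO primaries and 4.98, 1.10, 0.076, 0.74 and 0.78 CPM in the control primaries. KO metastasis 6 and control primary 3 were the highest libraries. Herc6, the main ISG15 ligase of the mouse, was at 1.01, 1.88, 3.58 and 3.31 CPM in the KO metastases, 2.71, 3.02, 2.59 and 2.90 CPM in the KO primaries and 2.43, 0.8, 1.10, 1.64 and 1.43 CPM in the control primaries. It is named here because its KO primaries all lay above the controls. Its log2 change was 0.92 (SE 0.411, adjusted p 0.336). Trim25, a ubiquitin ligase of the RIG-I pathway, averaged 0.952 ± 0.562 against 0.41 ± 0.398 CPM.

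Of the effectors that act on viral RNA and translation, 0 of the 8 tested were called in KO primaries against controls, where 2.93% of all genes were. Ifit2 was at 23.5, 49.2, 18.4 and 16.8 CPM in the KO metastases, 47.5, 33.7, 26.9 and 15.4 CPM in the KO primaries and 13.2, 32.6, 21.6, 22.1 and 30.9 CPM in the control primaries. The libraries with the lowest Ifit2 in each group were high-background ones: KO metastasis 7, KO primary 7 and control primary 3. Its log2 change was 0.36 (SE 0.372, adjusted p 0.849). Eif2ak2 encodes PKR, the kinase that stops translation when it binds double-stranded RNA, and was at 4.38, 2.41, 6.46 and 4.32 CPM in the KO metastases, 5.31, 7.21, 5.74 and 7.37 CPM in the KO primaries and 6.46, 3.14, 3.80, 4.60 and 5.73 CPM in the control primaries. The KO primaries lay in the upper part of the control range and above it (log2 0.43 (SE 0.297, adjusted p 0.643)).

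Ifit1 and Ifit3, which bind viral RNA ends, were far lower than Ifit2. Ifit1 was at 1.11, 0.424, 3.23 and 0.46 CPM in the KO metastases, 0.781, 1.33, 0.661 and 1.06 CPM in the KO primaries and 2.70, 0.741, 0.836, 0.225 and 0.323 CPM in the control primaries. KO metastasis 6 and control primary 3 stood above all others. Ifit3 averaged 0.94 ± 0.878 against 0.689 ± 0.51 CPM in KO and control primaries. The 3 Ifit genes are neighbours on chromosome 19 and related in sequence, and reads shared between them could not be assigned from counts, so their separate levels are uncertain.

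The Oas genes encode synthetases of oligoadenylate, which activates RNase L, and most libraries had few or no counts of them. A count of 3, taken as a detection floor, corresponds to 0.0724 to 0.127 CPM depending on the library. Oas1a, which was not tested, was at 0.287, 0.0265, 1.09 and 0.259 CPM in the KO metastases, 0.0521, 0.0816, 0 and 0.379 CPM in the KO primaries and 1.37, 0, 0, 0.0644 and 0 CPM in the control primaries. Oas2 was at 0.431, 0.0265, 1.37 and 0.316 CPM in the KO metastases, 0.599, 0.136, 0 and 0.758 CPM in the KO primaries and 1.22, 0.0296, 0.266, 0.0644 and 0 CPM in the control primaries. Oas3 was at 0.251, 0, 0.667 and 0.173 CPM in the KO metastases, 0, 0, 0.0264 and 0.542 CPM in the KO primaries and 1.98, 0, 0, 0.386 and 0.0269 CPM in the control primaries. For all 3 genes KO metastasis 6 was the highest metastasis, KO primary 7 the highest KO primary and control primary 3 the highest control.

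Oasl1, which restrains Irf7 translation in the mouse, was at 2.41, 0, 0.773 and 0.288 CPM in the KO metastases, 0.156, 0.49, 1.08 and 0.677 CPM in the KO primaries and 1.60, 0.267, 0.38, 0.0644 and 0 CPM in the control primaries. KO metastasis 3 was its highest library, and its share of mitochondrial counts was the highest too. Oasl2 was at 0.539, 0.212, 5.69 and 3.05 CPM in the KO metastases, 0.755, 1.61, 0.846 and 1.63 CPM in the KO primaries and 4.79, 0.148, 1.14, 0.934 and 0.942 CPM in the control primaries. KO metastasis 6 and control primary 3 were again the highest 2. The log2 changes of Oas2, Oas3, Oasl1 and Oasl2 between KO primaries and controls ran from -1.72 to 0.39, with standard errors of 0.919 to 1.95. Oas2 and Oas3 lie 3.244 kb apart on chromosome 5, and Oasl1 and Oasl2 11.005 kb apart. As related copies they carry the same uncertainty as the Ifit genes.

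Rsad2 and Cmpk2 had the next smallest p-values after Ifih1 among genes with positive changes. They lie 12.751 kb apart on chromosome 12 and are transcribed away from each other. Rsad2 encodes viperin, an enzyme that turns CTP into a chain terminator of viral RNA synthesis, and was at 6.79, 1.75, 4.64 and 2.30 CPM in the KO metastases, 6.43, 3.94, 2.80 and 2.30 CPM in the KO primaries and 2.66, 0.652, 1.03, 0.998 and 0.511 CPM in the control primaries. Of the controls only control primary 3 reached the range of the KO primaries. The KO primaries averaged 3.87 ± 1.84 CPM and the controls 1.17 ± 0.863 CPM (SD, n = 4 and 5), with a log2 change of 1.73 (SE 0.539, adjusted p 0.122). Cmpk2 encodes a mitochondrial nucleotide kinase that supplies CTP, and was at 14.3, 12.9, 14.9 and 8.95 CPM in the KO metastases, 25.4, 11.4, 15.7 and 7.88 CPM in the KO primaries and 9.51, 7.61, 2.74, 7.02 and 2.64 CPM in the control primaries. KO primary 7 lay below control primary 3 and the other 3 KO primaries above every control. The KO primaries averaged 15.1 ± 7.58 CPM and the controls 5.90 ± 3.08 CPM, with a log2 change of 1.36 (SE 0.41, adjusted p 0.107). Neither was called by edgeR in all libraries. Both were called without control primary 3 (Rsad2 adjusted p 0.0177, Cmpk2 0.0423), without the high-background libraries (0.0162 and 0.0268) and by DESeq2 (0.0366 and 0.0317).

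The Mx genes encode dynamin-like GTPases that trap viral nucleocapsids. Mx1, which was not tested, was at 0.18, 0, 0.351 and 0.115 CPM in the KO metastases, 0.0781, 0, 0.0793 and 0.19 CPM in the KO primaries and 0.685, 0.0889, 0, 0 and 0 CPM in the control primaries. Control primary 3 was the highest library. Mx2, annotated as a polymorphic pseudogene, was at 0.18, 0, 4.21 and 0.403 CPM in the KO metastases, 0.521, 2.23, 2.46 and 0.298 CPM in the KO primaries and 0.57, 0.652, 0.722, 0.225 and 0.377 CPM in the control primaries. KO metastasis 6 and KO primaries 4 and 6 stood above the rest. Bst2 encodes tetherin, which holds budding virions at the membrane, and averaged 1.29 ± 0.679 against 0.828 ± 0.386 CPM in KO and control primaries. Log2 changes were 1.43 (SE 1.14, adjusted p 0.732) for Mx2 and 0.64 (SE 0.721, adjusted p 0.872) for Bst2. The related Mx genes may share reads.

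Parp9 and Dtx3l encode a mono-ADP-ribosyltransferase and the ubiquitin ligase it works with. Parp9 was at 4.42, 6.50, 9.66 and 5.81 CPM in the KO metastases, 10.8, 7.24, 9.02 and 6.66 CPM in the KO primaries and 5.13, 1.87, 4.94, 4.06 and 5.41 CPM in the control primaries. The KO primaries lay above all controls, and the KO metastases spread over the range of both. Its KO primaries averaged 8.43 ± 1.88 CPM and its controls 4.28 ± 1.44 CPM (SD, n = 4 and 5), with a log2 change of 0.98 (SE 0.315, adjusted p 0.134). It was not called by edgeR and was called by DESeq2 (adjusted p 0.0450). Dtx3l was at 3.56, 8.06, 11.8 and 7.85 CPM in the KO metastases, 10.1, 5.09, 7.64 and 5.72 CPM in the KO primaries and 4.91, 2.73, 2.62, 5.83 and 7.02 CPM in the control primaries. KO and control primaries overlapped (log2 0.63 (SE 0.376, adjusted p 0.549)). The annotations of Parp9 and Dtx3l overlap by 682 bases on opposite strands, and the strand setting of the counting is not given, so reads of that stretch cannot be told apart. Parp14, a further enzyme of the family, was at 0.0718, 0.053, 3.13 and 1.96 CPM in the KO metastases, 0.365, 0.354, 0.767 and 2.30 CPM in the KO primaries and 4.07, 0.0296, 0.076, 0.547 and 0 CPM in the control primaries. Control primary 3 and the high-background knockout libraries were the 4 highest of the 13 (log2 0.01 (SE 1.47, adjusted p 1) between KO primaries and controls).

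Samd9l, a restriction factor that slows translation and cell growth, had the largest negative change of the list. Its level was 0.359, 0.557, 1.12 and 0.604 CPM in the KO metastases, 0, 0.245, 0.0793 and 0.975 CPM in the KO primaries and 1.67, 3.55, 8.44, 5.67 and 0.619 CPM in the control primaries. Control primaries 4, 5 and 6 were high, while control primary 7 lay below KO primary 7. The KO primaries averaged 0.325 ± 0.445 CPM and the controls 3.99 ± 3.14 CPM (SD, n = 4 and 5), with a log2 change of -3.60 (SE 1.05, adjusted p 0.0942). It was not called in all libraries. Without the high-background libraries, 1 of which is KO primary 7, the log2 change was -5.35 and the adjusted p 0.0133. DESeq2 called it at 0.00232.

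The remaining genes were low. Ifi44, induced by type I interferon, was at 0, 0, 2.74 and 0.863 CPM in the KO metastases, 0.156, 0.19, 0.0793 and 2.36 CPM in the KO primaries and 7.34, 0.0296, 0.228, 0 and 0 CPM in the control primaries. Control primary 3 held nearly all counts of its group. Xaf1, a proapoptotic binding partner of XIAP, was at 0, 0, 1.19 and 0.374 CPM in the KO metastases, 0.156, 0.626, 0.476 and 0.542 CPM in the KO primaries and 2.93, 0.178, 0.114, 0.0966 and 0.188 CPM in the control primaries. Control primary 3 was again the highest library. Rtp4 was at 0.754, 0.133, 3.76 and 1.18 CPM in the KO metastases, 0.677, 1.39, 0.873 and 0.813 CPM in the KO primaries and 2.93, 0.474, 0.304, 0.773 and 0.135 CPM in the control primaries. KO metastasis 6 and control primary 3 were the highest 2. Ifi35 averaged 0.756 ± 0.166 against 0.726 ± 0.222 CPM in KO and control primaries, with 0.456 to 1.05 CPM across the controls. None of these 4 genes was called.

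**Figure D4:**
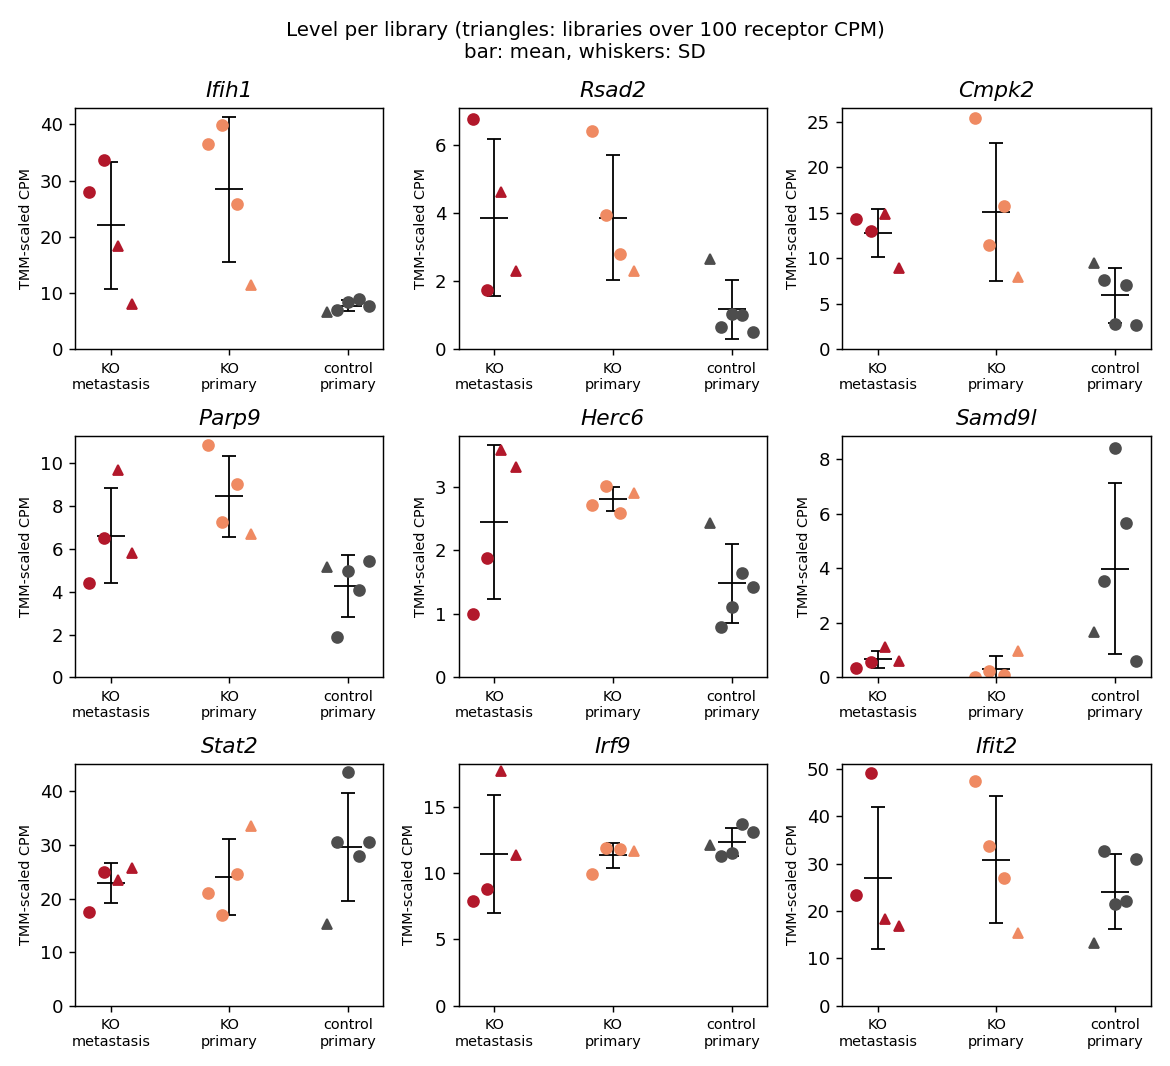
Level per library (points, triangles for libraries over 100 receptor CPM) with the group mean (bar) and SD (whiskers) of 9 interferon-stimulated genes, in CPM, for KO metastases, KO primaries and control primaries. Ifih1, Parp9 and Herc6 separate all KO primaries from all controls, Samd9l is high in 3 controls, and Stat2, Irf9 and Ifit2 overlap throughout.

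Between KO metastases and KO primaries, which share their genotype, none of the 32 genes was called by edgeR, and none had an unadjusted p below 0.05, against 3.23% of all genes. Across all genes 1 of 22265 was called, or 0.00449%. DESeq2 (0.0848% of its genes) and limma voom (0.00898% of all genes) also called none of the list, nor did edgeR without the high-background libraries (0.0247% of all genes). The median log2 change was 0.21, with 18 positive and 14 negative, against 49.6% positive among all genes. Without KO metastasis 6 the median was -0.28 and 9 of 32 were positive, and without the high-background libraries it was -0.41. No listed gene had all metastases above all KO primaries (0.683% of all genes) or all below them (1.04%).

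The 4 smallest p-values belonged to Eif2ak2, Parp9, Isg15 and Samd9l. Eif2ak2 averaged 4.39 ± 1.65 against 6.41 ± 1.03 CPM in KO metastases and KO primaries (log2 -0.55, SE 0.315). Parp9 averaged 6.60 ± 2.22 against 8.43 ± 1.88 CPM (log2 -0.35, SE 0.333). Isg15 averaged 0.427 ± 0.436 against 0.195 ± 0.143 CPM (log2 1.11, SE 1.05) and Samd9l 0.661 ± 0.326 against 0.325 ± 0.445 CPM (log2 1.02, SE 1.00). Their edgeR adjusted p was 1.00 in each case. Ifih1 averaged 22.0 ± 11.3 against 28.4 ± 12.8 CPM (log2 -0.37, SE 0.402), and in both knockout groups replicate 7 was its lowest library. With standard errors of this size, the precision was low for most of the list: the median standard error was 0.809 on the log2 scale. Both high-background metastases lay above both other metastases for 13 of 32 genes (40.6%), against 28.6% of all genes tested. Among the 13 were Irf7, Irf9, Usp18, Oasl2 and Rtp4.

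Between KO metastases and control primaries, which uses the same 5 controls as the comparison of the KO primaries, none of the 32 genes was called by edgeR, against 3.08% of all genes (1.06% higher and 2.02% lower). The unadjusted p was below 0.05 for 4 of 32, against 14.2% of all genes. The median log2 change was 0.52, against -0.04 over all genes, and 24 of 32 were positive, against 46.6% of all genes. Without KO metastasis 6 the median was -0.03, and without control primary 3 it was 1.13. No listed gene had all metastases above all controls (2.81% of all genes) or all below them (4.01%). DESeq2 called 2 of the 34, Ifih1 and Rsad2, against 3.57% of its genes, and limma voom 3 of 32, against 17.2%. Without the high-background libraries 2 of 30 were called, the same pair, against 6.3%, and without the Xist-positive controls none, against 0.355%.

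Ifih1 averaged 22.0 ± 11.3 against 7.73 ± 1.01 CPM in KO metastases and controls, with a log2 change of 1.51 (SE 0.385, adjusted p 0.0506). KO metastasis 7 was inside the control range and the other 3 metastases above it. Without KO metastasis 3 the adjusted p was 0.177, without KO metastasis 7 0.0143, without the high-background libraries 9.18e-04 and by DESeq2 0.00362. Rsad2 averaged 3.87 ± 2.31 against 1.17 ± 0.863 CPM, with a log2 change of 1.73 (SE 0.539, adjusted p 0.117). KO metastases 4 and 7 lay below control primary 3 and above the other controls. KO metastasis 3, with the high mitochondrial share, was its highest library, and without it the log2 change was 1.34 (adjusted p 0.376). It was called without control primary 3 (adjusted p 0.0160), without the high-background libraries (0.0285), by DESeq2 (0.0368) and by limma voom (0.0137). Cmpk2 averaged 12.8 ± 2.67 against 5.90 ± 3.08 CPM, with a log2 change of 1.11 (SE 0.409, adjusted p 0.204). Samd9l averaged 0.661 ± 0.326 against 3.99 ± 3.14 CPM, with a log2 change of -2.59 (SE 0.999, adjusted p 0.234), and control primary 7 lay among the metastases. All 4 changes had the sign seen in the KO primaries, against the same controls.

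**Figure D5:**
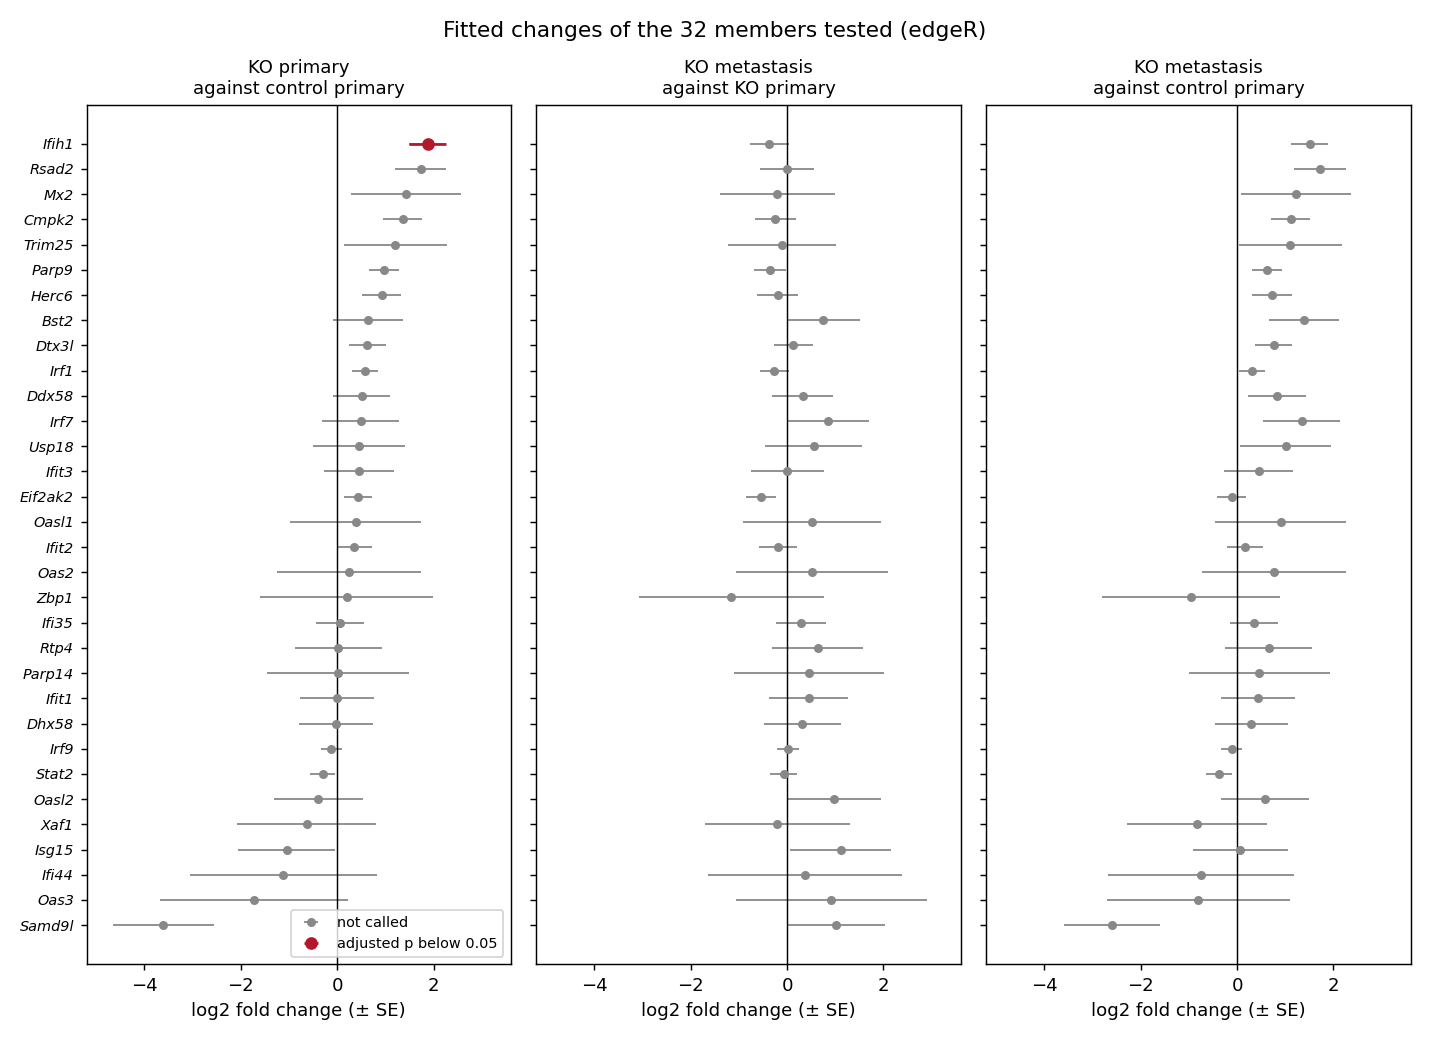
Fitted log2 fold change (points) with its standard error (lines) for the 32 tested genes, for KO primary over control primary, KO metastasis over KO primary and KO metastasis over control primary, with genes in the order of the left panel. Ifih1 in the left panel is the only point past an adjusted p of 0.05, and the widest lines belong to the low Oas3, Ifi44 and Zbp1.

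The genes upstream of this list were measured beside it. Of 19 interferon genes only Ifnb1 and Ifnk passed the filter, and neither was called in any comparison. Ifnb1, the first type I interferon that most cells make, had 0, 0, 9 and 16 counts in the KO metastases, 0, 0, 0 and 21 in the KO primaries and 24, 0, 0, 0 and 0 in the control primaries. Its counts lay in the 4 high-background libraries alone. These libraries had counts in 6 to 13 of the 19 interferon genes, against 1 to 3 in the other 9. Ifng, the gene of interferon gamma, had 58 counts in KO metastasis 3, 4 in KO metastasis 4, 1 in KO primary 7, 3 in control primary 3 and 0 elsewhere, so that most of its counts lay in the library with the high mitochondrial share.

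None of 6 interferon receptor genes and none of 5 genes of the JAK-STAT relay was called in any comparison by edgeR. Over all genes 2.93% were called in KO primaries against controls, 0.00449% between the knockout groups and 3.08% in metastases against controls. Ifnar2, a chain of the type I receptor, had the smallest p of its list and averaged 14.4 ± 2.90 CPM in KO primaries and 10.6 ± 2.07 CPM in controls (log2 0.45, adjusted p 0.338). In the relay Stat3 did, at 23.6 ± 6.10 against 29.2 ± 6.93 CPM (log2 -0.30, adjusted p 0.668). Of 19 tested genes of nucleic acid sensing and its relay none was called. In KO primaries against controls 12 of the 19 changes were positive, against 45.6% of all genes. The unadjusted p was below 0.05 for 4 of them, against 13.6% of all genes. Those were Mavs, Mb21d1 and Irf3, which were higher, and Tmem173, which was lower. Mavs, the mitochondrial adaptor on which MDA5 and RIG-I act, was at 24.7, 41.01, 29.4 and 23.4 CPM in the KO metastases, 32.9, 43.1, 31.4 and 27.2 CPM in the KO primaries and 10.4, 20.03, 18.9, 25.1 and 17.5 CPM in the control primaries. All KO primaries lay above all controls (log2 0.87, adjusted p 0.0742). Tmem173 averaged 8.78 ± 3.29 CPM in KO primaries and 24.6 ± 18.5 CPM in controls (log2 -1.48, adjusted p 0.144). In the metastases Samhd1, which breaks down deoxynucleotides, had the smallest p against controls, at 27.1 ± 3.91 against 19.1 ± 2.74 CPM (log2 0.50, adjusted p 0.107).

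Of 9 negative regulators 1 was called in KO primaries against controls, where 2.93% of all genes were called. It was Socs1, which blocks Janus kinases. Its level was 1.90, 3.05, 2.53 and 2.62 CPM in the KO metastases, 4.09, 4.41, 3.78 and 2.76 CPM in the KO primaries and 2.24, 1.10, 1.37, 1.51 and 1.48 CPM in the control primaries. All KO primaries lay above all controls, with a mean of 3.76 ± 0.712 CPM in KO primaries and 1.54 ± 0.426 CPM in controls (log2 1.29, adjusted p 0.0310). With 1 library left out at a time, 7 of 9 fits no longer called it.

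A second list of 53 interferon-stimulated genes, 46 of them tested, gave 2 higher and 1 lower in KO primaries against controls, where 1.15% of all genes were called higher and 1.78% lower. It gave 0 higher and 2 lower in KO metastases against controls, where 1.06% of all genes were called higher and 2.02% lower, and none between the knockout groups (0.00449% of all genes). In KO primaries against controls its median log2 change was -0.18, below the -0.05 over all genes, and 19 of 46 were positive, against 45.6%. In metastases against controls the median was 0.31, with 29 of 46 positive, against 46.6% of all genes. Between the knockout groups it was 0.09, with 29 of 46 positive, against 49.6%. Mov10, an RNA helicase that restrains retroelements, was at 9.23, 9.73, 10.5 and 8.72 CPM in the KO metastases, 9.53, 11.5, 9.44 and 11.7 CPM in the KO primaries and 6.20, 5.15, 5.40, 3.48 and 7.13 CPM in the control primaries. Trim56, a ubiquitin ligase of cytosolic DNA and RNA sensing, was at 14.5, 8.33, 11.6 and 8.86 CPM in the KO metastases, 11.9, 16.0, 12.1 and 12.03 CPM in the KO primaries and 8.97, 2.52, 5.93, 5.21 and 4.14 CPM in the control primaries. In both, every KO primary lay above every control. The log2 changes in KO primaries were 0.94 for Mov10 (adjusted p 0.0236) and 1.28 for Trim56 (0.0380), and with 1 library left out at a time the calls were lost in 4 and 7 of 9 fits, in that order. Apobec3, a cytidine deaminase that edits retroviral DNA, was at 2.59, 3.79, 6.88 and 7.16 CPM in the KO metastases, 2.37, 5.52, 4.26 and 7.77 CPM in the KO primaries and 24.9, 21.1, 6.50, 26.8 and 27.5 CPM in the control primaries. Control primary 5 lay within the range of the knockout libraries and the other 4 controls far above it. Its log2 change was -2.10 in KO primaries (adjusted p 0.0234) and -2.06 in KO metastases (0.0257), with the call lost in 3 and 5 of 9 such fits. Trafd1, a negative regulator of innate sensing, was at 41.05, 61.0, 55.8 and 74.3 CPM in the KO metastases, 62.4, 53.2, 67.1 and 73.7 CPM in the KO primaries and 85.8, 109.5, 95.8, 93.6 and 96.9 CPM in the control primaries. Every metastasis lay below every control (log2 -0.73, adjusted p 0.0262, no longer called in 7 of 9 such fits).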

How the data were processed

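The authors deposited unnormalised read counts by gene symbol, 1 column for each of 13 libraries, made with STAR 2.4, HTSeq 0.6.1, DESeq2 and mm10, per the submitters' processing notes, which give no roles. Annotation, strand setting and trimming: not given in the sources used here. No column lacked a sample. Of 53653 symbols, 28534 matched GENCODE M21 (GRCm38), all 34 members among them.

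One model covered the 3 groups (edgeR 4.0.16, R 4.3.3): filterByExpr (minimum count 10, minimum total 15), TMM, quasi-likelihood F tests, Benjamini-Hochberg over all 22265 genes, called below an adjusted p of 0.05. CPM values use TMM-scaled totals (unscaled for Xist, receptor genes and the detection floor), and the SD is over libraries of a group. The standard error of an edgeR log2 change was derived from its test, as the size of the change divided by the square root of its F statistic. Levels of different genes were compared per kb of merged exons, except in choosing the members shown by library, where CPM was not scaled to length. A gene at 0 is below a floor of 3 counts, for counting error only. The script was tested on simulated data, with changes planted only in genes above a level limit. Recovery of changes in the lowest genes of the list was not tested. DESeq2 1.42.0, limma 3.58.1 voom, RLE factors, no filter, 2-group fits, a replicate block and fits without single or high-background libraries or Xist-positive controls were alternatives.

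Members, lists, rules and alternatives were chosen with earlier results of these data known. Values for every library are given for members that were called, had 1 of the 4 smallest p or of the 6 highest mean CPM, or had a library set apart, and Herc6 was added after its values were seen. Of the other lists, called genes and those with the smallest p against controls are named. For nucleic acid sensing, genes with an unadjusted p below 0.05 in KO primaries against controls are named too. Between the knockout groups, where none was called, counts only are given. Reads shared by related or overlapping genes could not be assigned.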

Additional observations from a re-analysis of the deposited data

Results flagged for a closer look

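Within each group of 4 or 5 libraries, a value was set apart when its gap to the nearest other value, divided by the range of the group, passed Dixon's 95% limit. Of 102 combinations of gene and group, 20 did so, 19 on the high side and 1 on the low side. The limit allows about 1 in 20 for independent, normally distributed values. Low counts are skewed and the genes share libraries, and no share over all genes was computed. So the 20 cannot be read against that rate. Of the 19 high values, 18 lay in the high-background libraries. In control primary 3 Ddx58 stood at 5.74 CPM, Ifit1 at 2.70, Ifi44 at 7.34, Mx1 at 0.685, Oas1a at 1.37, Oas2 at 1.22 and Oas3 at 1.98 CPM, each far above the other 4 controls. In the same library Oasl1 stood at 1.60 CPM, Oasl2 at 4.79, Rsad2 at 2.66, Usp18 at 4.98, Xaf1 at 2.93, Rtp4 at 2.93 and Parp14 at 4.07 CPM. KO primary 7 was set apart for Dhx58 at 3.01 CPM, Ifi44 at 2.36 CPM and Oas3 at 0.542 CPM. KO metastasis 6 was set apart for Mx2 at 4.21 CPM, against at most 0.403 CPM in the other metastases.

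Outside these libraries, Isg15 was high in KO primary 4, at 0.408 CPM against at most 0.135 CPM in the other KO primaries, and Irf9 was low in KO primary 3, at 9.95 CPM against at least 11.6 CPM. The part of the receptor-gene background in these values was not tested.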

How the results depend on the processing

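Counts below are given for KO primary against control primary, KO metastasis against KO primary and KO metastasis against control primary, in this order, and edgeR on all libraries called 653, 1 and 685 of all genes and 1, 0 and 0 of the interferon-stimulated genes. DESeq2 called 1665, 39 and 1639 and 5, 0 and 2. Limma voom called 3267, 2 and 3822 and 6, 0 and 3. Without the high-background libraries the counts were 1427, 5 and 1274 and 4, 0 and 2, and without the Xist-positive controls 138, 0 and 100 and 0, 0 and 0. Without a filter on low counts, 2 genes were called between the knockout groups, and with the 2 groups alone 0. In the metastases against controls 1 listed gene, Ifih1, was called with RLE factors, without the filter and with the 2 groups alone. Fits that left out 1 library called 277 to 1032, 0 to 1 and 369 to 1199 genes, and 0 to 3, 0 to 0 and 0 to 1 of the list.

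In KO primaries against controls the median log2 change of the list was 1.03 by voom, against 0.02 over all genes. Without high-background libraries it was 1.02, against -0.03 over all genes. Without Xist-positive controls it was -0.0476, against -0.22 over all genes. That fit keeps control primaries 3 and 4, and control primary 3 had the highest list mean of the controls (1.80). Between the knockout groups the list median was -0.41 without high-background libraries, against -0.0053 over all genes. In metastases against controls it was 1.19 by voom, against 0.08 over all genes. Leaving out 1 library gave medians of 0.26 to 0.94, -0.28 to 0.32 and -0.0344 to 1.13.

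Signs across settings were followed only for Cmpk2, Dtx3l, Eif2ak2, Herc6, Ifih1, Ifit2, Irf9, Isg15, Parp9, Rsad2, Samd9l and Stat2 of the list. Other listed genes turned sign too. Without Xist-positive controls 17 of 34 were positive in KO primaries against controls, against 22 of 32 in all libraries. Between the knockout groups 7 of 30 were positive without high-background libraries, against 18 of 32 in all libraries. Among the followed genes, changes that turned sign were all uncalled. In KO primaries against controls, without Xist-positive controls, they were Irf9 (0.0115) and Stat2 (0.0679). Between the knockout groups, without high-background libraries, they were Dtx3l (-0.39), Ifit2 (0.015), Irf9 (-0.43) and Stat2 (0.0249), and by voom Herc6 (0.12) and Stat2 (0.19). Rsad2, at 0 within error there, was 0.0329 with RLE factors, 0.0273 by DESeq2, 0.00738 without the filter, 0.0539 with the 2 groups alone and 0.0173 without Xist-positive controls. In metastases against controls they were Eif2ak2 (0.14), Ifit2 (-0.41) and Irf9 (0.0246) by voom, and Irf9 (0.0463), Isg15 (-0.23) and Stat2 (0.0416) without Xist-positive controls. Leaving out 1 library gave ranges across 0 between the knockout groups for Cmpk2 (-0.45 to 0.15), Dtx3l (-0.11 to 0.40), Herc6 (-0.40 to 0.10), Ifit2 (-0.64 to 0.11), Irf9 (-0.24 to 0.19), Rsad2 (-0.39 to 0.38) and Stat2 (-0.20 to 0.14). In metastases against controls it did so for Eif2ak2 (-0.32 to 0.10), Ifit2 (-0.29 to 0.33), Irf9 (-0.37 to 0.029) and Isg15 (-0.83 to 0.56). The cause of these moves was not tested.

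With the replicate number as a block the counts were 672, 0 and 639 and 3, 0 and 1. Among the followed genes, Irf9 turned to -0.0439 between the knockout groups and Ifit2 to -0.0055 in metastases against controls. The labels do not say what the numbers share. The correlation of deviations between libraries of the same number was 0.0095 to 0.559 between KO metastases and KO primaries, with 3 of 4 over 0.1, -0.428 to 0.184 between KO primaries and controls and -0.311 to 0.331 between metastases and controls. As not every pair exceeded 0.1, pairing was not assumed, and not every library matched its own number best.

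Limits were set by low counts, since most of the list lay near or below 1 CPM, by 4 or 5 libraries a group, and by the high-background libraries, which carried most of the counts of the lowest genes. Age and sex differ with genotype in part and were not separated.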

Other observations

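Tested protein-coding genes within 500 kb of Ifih1 on chromosome 2 were read out as a description of its surroundings, after its values were seen. Fap, a serine protease gene of activated fibroblasts, averaged 13.6 ± 7.49 CPM in KO primaries and 3.13 ± 3.06 CPM in controls (log2 2.12, edgeR adjusted p 0.109). Gca, which encodes the calcium-binding protein grancalcin, averaged 28.1 ± 9.65 CPM in KO primaries and 16.3 ± 4.95 CPM in controls (log2 0.79, adjusted p 0.228). Kcnh7, a potassium channel gene of the same window, averaged 34.1 ± 3.17 CPM in KO metastases and 72.6 ± 25.8 CPM in controls, and was called lower (log2 -1.09, adjusted p 0.0179). In KO primaries against controls Kcnh7 was not called, at 46.8 ± 3.57 and 72.6 ± 25.8 CPM (adjusted p 0.179). Slc4a10 was lower in KO primaries than in controls, at 1.43 ± 0.676 and 4.29 ± 3.34 CPM (log2 -1.58, edgeR adjusted p 0.430). Dpp4 and Gcg were higher, with log2 changes of 1.07 and 1.37 (edgeR adjusted p 0.466 and 0.598). No other tested protein-coding gene of the window was called in any comparison.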
